A study of Mus musculus with 10 samples.

Results

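Potassium channel genes were taken as the protein-coding genes of the GENCODE annotation of mouse genome build mm9 whose symbol begins with Kcn. There were 96 of them among 22380 protein-coding genes, under 94 symbols, since Kcnb2 and Kcnh8 are each listed under 2 gene identifiers. H3K27me3, the trimethyl mark that polycomb repressive complex 2 (PRC2) places on lysine 27 of histone H3, had been profiled by ChIP-seq, and 1 peak list was available for each of 5 mouse B-cell lymphoma lines. All 5 lines carry the Eμ-Myc transgene and a Cdkn2a-/- genotype on the C57BL/6J strain, and all descend from a single parental culture, in which an immunoglobulin heavy chain enhancer drives c-Myc in the B lineage. Stepwise selection of the parental line gave R100, R500, R1000 and R4000, by exposure to mafosfamide, an alkylating agent related to cyclophosphamide, at 100, 500, 1000 and 4000 nM, with harvest on days 10, 18, 23 and 37. The chromatin was prepared from cells kept without the drug. The values are covered bases, namely how many bases around a gene lie in the peaks that the authors called in a line.

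Potassium channels let potassium ions leave or enter a cell along their gradient and so set its resting voltage and the shape and length of its electrical signals. Voltage-gated (Kv), inward rectifier, tandem pore-domain (K2P) and calcium- or sodium-activated channels are built from pore-forming subunits, and smaller auxiliary subunits tune them. Most are best known from neurons, glia, heart and muscle, whereas B cells are known to use few of them, among these the channels encoded by Kcna3 and Kcnn4. PRC2 is known to hold genes of other lineages silent, often at start sites that are rich in CpG dinucleotides.

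The parental list held 10778 distinct peaks and the lists of R100, R500, R1000 and R4000 held 25180, 21888, 9595 and 6820, with a median peak width of 100 bp in each. The depth behind the lists is unknown, and longer lists cover more of any set of genes, so the main counts stand beside the same count over all protein-coding genes. There is 1 list per line and no spread between replicates, so no difference between lines was tested, and list length and line cannot be told apart. Of 8 B-cell marker genes, 4 had a covered promoter in a resistant line, among them Cd79b with 0, 1000, 150, 150 and 0 bp, where values without a named line are given here and throughout in the order parental, R100, R500, R1000, R4000. Cd79a, Blnk and Ms4a1 had 0 bp in every line, as did Cd3e, Cd8a, Syt1 and Alb among 6 markers of other cell types. These lists do not measure expression.

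Many potassium channel genes carried H3K27me3 near their start in R100, and fewer did in each other line. A promoter was counted as covered where peaks took up at least 150 bp of the window of 2 kb on each side of the transcription start site (TSS). In the parental line 15 of the 96 promoters were covered (15.6%, 95% Wilson interval 9.70 to 24.2%), against 5.25% of all protein-coding genes. R100 had 31 (32.3%, 23.8 to 42.2%), against 17.4%, and R500 had 25 (26.0%, 18.3 to 35.6%), against 13.3%. In R1000 the number was 16 (16.7%, 10.5 to 25.4%), against 6.92%, and in R4000 it was 11 (11.5%, 6.52 to 19.4%), against 5.50%. The potassium channel genes were thus covered more often than all protein-coding genes in each line, with a share 2.97 times the background in the parental line and 1.85, 1.96, 2.41 and 2.08 times in the resistant lines. Their number in R100 was 2.07 times the parental number, while the number of all protein-coding genes was 3.32 times the parental number. These intervals cover the counting of genes and not the variation between cultures.

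The order of R4000 and the parental line turned with the rule. At 500 bp or more of coverage 8 potassium channel promoters were covered in R4000 and 6 in the parental line (8.33% and 6.25%, all genes: 1.92% and 2.31%), and with peaks at least 500 bp wide these numbers were 5 and 3 (5.21% and 3.12%, all genes: 1.03% and 1.24%). With such wide peaks R500 had 14 covered promoters and R100 had 13 (14.6% and 13.5%, all genes: 4.78% and 5.29%). R1000 and the parental line differed by 1 promoter and also changed order, with 8 against 9 in the 5 kb upstream of the TSS (8.33% and 9.38%, all genes: 3.93% and 3.64%).

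**Figure D1:**
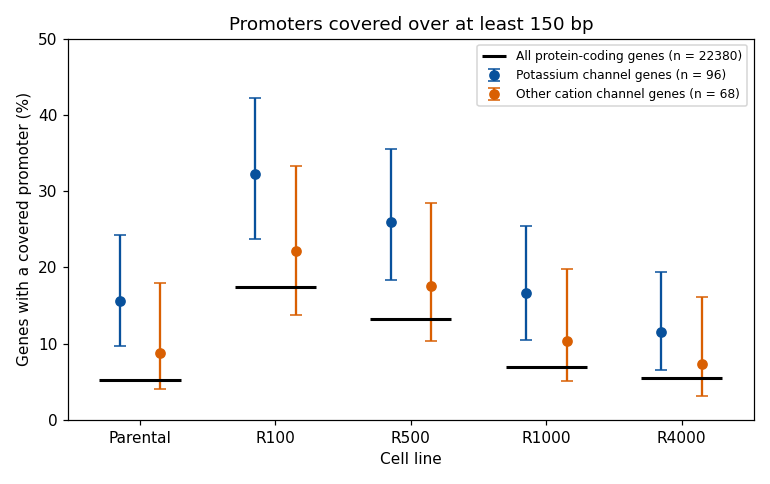
Percentage of genes with a promoter covered over at least 150 bp (y axis) in each cell line (x axis); blue points are the 96 potassium channel genes and orange points 68 other cation channel genes, with 95% Wilson intervals, and black bars all 22380 protein-coding genes. The blue points lie above the black bars in all 5 lines, from 11.5% in R4000 to 32.3% in R100.

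Summed over the 96 promoters, peaks covered 9451, 27586, 25679, 10009 and 7700 bp from the parental line to R4000. Relative to the parental line the sums were 2.92, 2.72, 1.06 and 0.815 times as large, and the corresponding figures over all protein-coding promoters were 3.86, 3.31, 1.31 and 0.940. Among covered promoters, the median coverage of the potassium channel genes was 300, 550, 700, 500 and 550 bp. Over all covered protein-coding promoters the medians were 400, 400, 500, 400 and 350 bp in the same order. With each list cut to its 6820 widest peaks, the length of the R4000 list, the potassium channel promoters held 8759, 21390, 21461, 9609 and 7700 bp. In the cut lists 13.5, 26.0, 24.0, 15.6 and 11.5% of them were covered, against 4.84, 11.8, 10.3, 6.44 and 5.50% of all protein-coding genes. The cut makes the number of peaks equal but not their widths.

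The covered promoters of every other line lay within those of R100, while the parental, R1000 and R4000 sets overlapped in part. Every potassium channel promoter covered in any line, 31 in all (32.3%, against 20.1% of all protein-coding genes), was covered in R100, whereas R100 held 86.8% of the promoters covered in at least 1 line over all protein-coding genes. All 15 parental promoters were covered in both R100 and R500 (all genes: 96.4% and 96.3% of the parental promoters), 12 in R1000 (80.0%, 54.8 to 93.0%, all genes: 81.5%) and 10 in R4000 (66.7%, 41.7 to 84.8%, all genes: 64.5%). All 25 of R500 and all 16 of R1000 were also covered in R100, and 10 of the 11 of R4000 were covered in R1000, the exception being Kcne3. A total of 25 were covered in both R100 and R500 (26.0%, against 11.2%). Of the 81 promoters not covered in the parental line, 16 were covered in R100 (19.8%, 12.5 to 29.7%, all genes: 13.0%), 10 in R500 (12.3%, 6.85 to 21.3%, all genes: 8.69%), 4 in R1000 (4.94%, all genes: 2.78%) and 1 in R4000 (1.23%, all genes: 2.24%). The R4000 share rests on 1 promoter (interval 0.218 to 6.67%). In each resistant line the interval includes the share of all genes.

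Gene by gene, R100 covered more bases than the parental line at all 37 potassium channel promoters with a peak in either, and R500 did so at all 27. Over all protein-coding genes these shares were 95.9% and 93.9%. R1000 covered more bases than the parental line at 14 of 25 promoters and fewer at 8 (56.0% and 32.0%), against 67.2% and 29.1% of all protein-coding genes. R4000 covered more at 6 of 23 and fewer at 15 (26.1% and 65.2%), where over all protein-coding genes more bases were covered at 54.8% and fewer at 41.0%. From R500 to R1000, 27 of 29 promoters had fewer covered bases, by a median of 500 bp, against 82.9% of all protein-coding promoters and a median of 100 bp. The highest value of the 31 covered promoters was in R100 for 18 and in R500 for 11, and 2 had the same value in both.

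**Figure D2:**
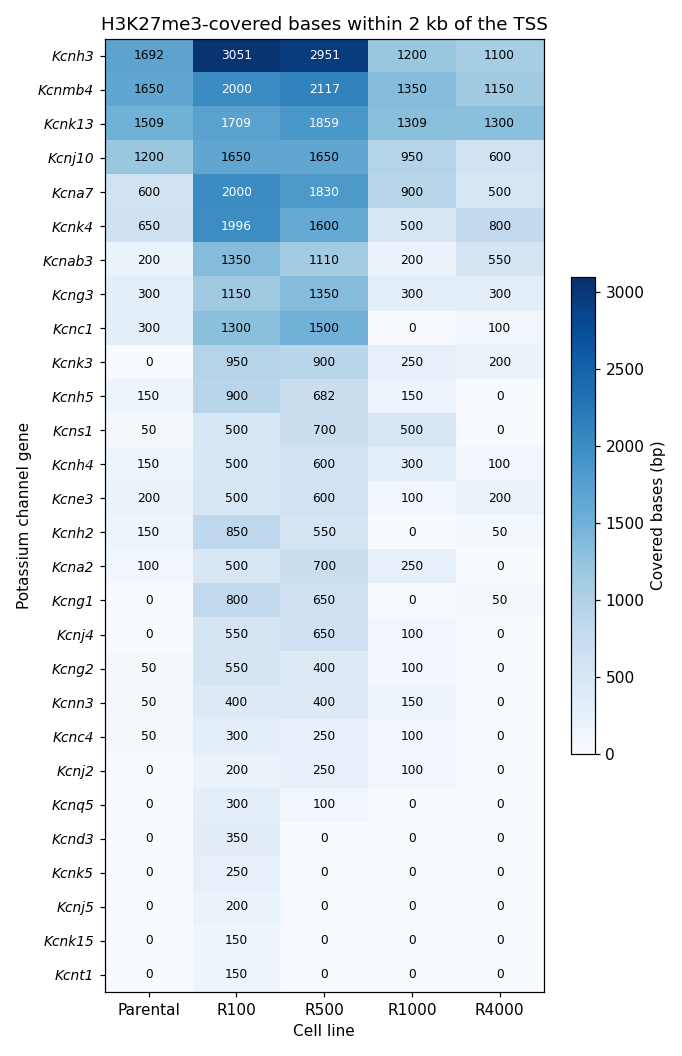
Covered bases within 2 kb of the TSS (colour and printed value, in bp) for 28 potassium channel genes (rows) whose promoter was covered over at least 150 bp in a line, in the 5 cell lines (columns). Kcnh3 has the largest value, 3051 bp in R100, and the columns of R100 and R500 are darker than the parental one in every row where R500 has a peak.

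There were 9 potassium channel promoters covered in all 5 lines (9.38%, 5.01 to 16.9%), against 3.17% of all protein-coding genes. Among them were Kcnh3, Kcnmb4, Kcnk13, Kcnj10, Kcna7, Kcnk4, Kcnab3 and Kcng3. At 6 of the 9, some bases lay in the peaks of all 5 lists, and at Kcnk4, Kcnab3 and Kcng3 the lists shared no base. Kcnh3, an EAG-related voltage-gated channel known from the brain, starts at position 99055292 of chromosome 15. Its promoter held 1692 covered bases in the parental line and 3051, 2951, 1200 and 1100 in the resistant lines, and the values of the parental, R100 and R500 lines were the highest of any potassium channel gene. Its peaks lay on both sides of the TSS, and the stretch from -1491 to -1042 bp relative to the TSS was covered in all 5 lines.

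Kcnmb4 encodes the neuronal beta subunit of the large-conductance calcium-activated channel and starts at position 115910934 of chromosome 10, on the minus strand. Its promoter was covered over 1650, 2000, 2117, 1350 and 1150 bp in the parental, R100, R500, R1000 and R4000 lines. Kcnk13, a K2P channel known as THIK that carries background current in microglia, starts at position 101202709 of chromosome 12 and had 1509, 1709, 1859, 1309 and 1300 bp. At both genes no line had more than 2 times the covered bases of another, and at Kcnk13 every covered base lay downstream of the TSS. Kcnj10, the inward rectifier of glia that clears potassium around neurons, starts at position 174271341 of chromosome 1 and had 1200, 1650, 1650, 950 and 600 bp. R4000 was the lowest line at all 4 of these genes and R100 or R500 the highest.

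Kcna7, a voltage-gated channel of the Kv1 family, had 600, 2000, 1830, 900 and 500 bp. Kcnk4, the mechanosensitive K2P channel TRAAK, had 650, 1996, 1600, 500 and 800 bp. In R100 a single stretch of 1850 bp ran across its TSS, where the parental list had 5 separate stretches of 50 to 200 bp, all downstream. Kcnab3, an auxiliary beta subunit of Kv channels, had 200, 1350, 1110, 200 and 550 bp, and its TSS lies 2278 bp from that of Trappc1, so that peaks there cannot be assigned to one gene. Kcng3, a Kv subunit that is electrically silent on its own, had 300, 1150, 1350, 300 and 300 bp. At each of these 4 genes R100 and R500 were above each of the other 3 lines.

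**Figure D3:**
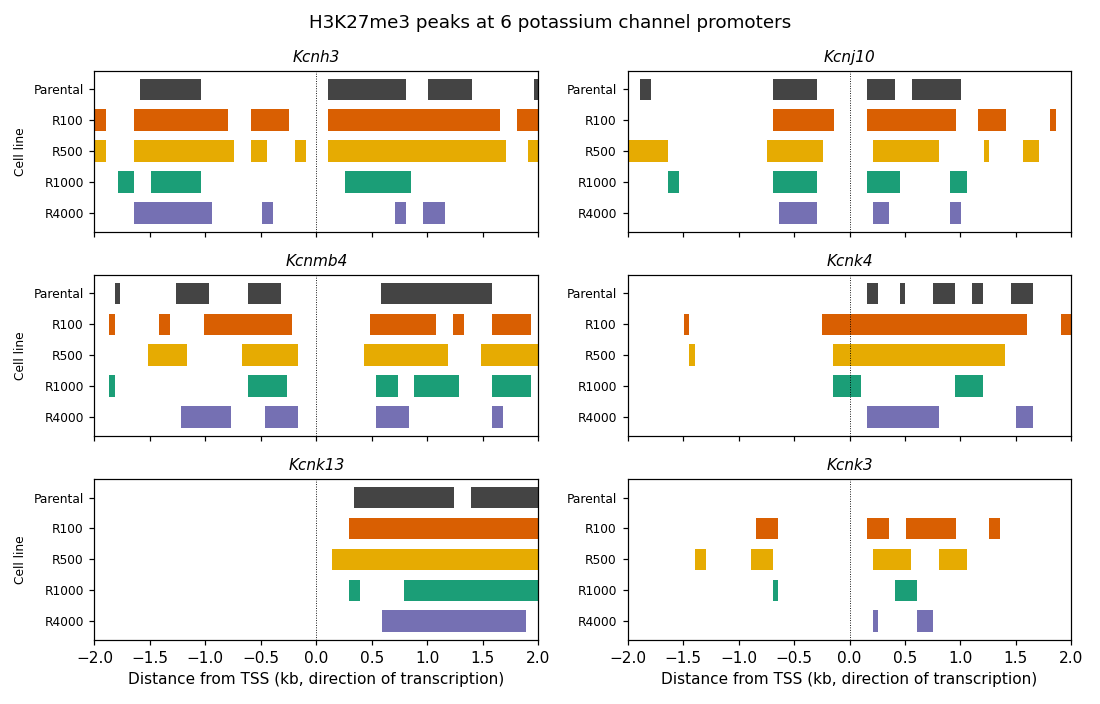
Peaks (bars) within 2 kb of the TSS (x axis, in kb along the direction of transcription) in the 5 cell lines (rows of each panel) at 6 potassium channel genes. At Kcnk4 the stretch of 1850 bp in R100 crosses the TSS, and Kcnk3 has no parental peak.

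The sequences of the widest shared stretches show how far the covered DNA differed in CpG content. The 3 widest stretches covered in all 5 lines were at Kcnk13 (500 bp), Kcnh3 (450 bp) and Kcnj10 (350 bp), and up to 300 bases from the middle of each, outside annotated untranslated regions, are printed from mm9 with each CG in capitals, read along the gene. The Kcnk13 sequence, chr12:101204173-101204472 on the plus strand, lies wholly in an exon and holds 28 CpGs (GC content 67.7%). The Kcnh3 sequence, chr15:99053876-99054175 on the plus strand, lies upstream of the gene and holds 11 CpGs (58.0% GC). The Kcnj10 sequence, chr1:174270726-174271025 on the plus strand, is also upstream and holds 12 (56.3% GC).
Kcnk13: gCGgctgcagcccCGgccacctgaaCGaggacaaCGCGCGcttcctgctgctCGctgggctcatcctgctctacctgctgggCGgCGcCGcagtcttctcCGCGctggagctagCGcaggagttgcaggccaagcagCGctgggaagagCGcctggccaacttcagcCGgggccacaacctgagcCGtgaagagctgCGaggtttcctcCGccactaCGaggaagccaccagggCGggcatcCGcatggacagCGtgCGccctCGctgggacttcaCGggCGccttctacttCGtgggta
Kcnh3: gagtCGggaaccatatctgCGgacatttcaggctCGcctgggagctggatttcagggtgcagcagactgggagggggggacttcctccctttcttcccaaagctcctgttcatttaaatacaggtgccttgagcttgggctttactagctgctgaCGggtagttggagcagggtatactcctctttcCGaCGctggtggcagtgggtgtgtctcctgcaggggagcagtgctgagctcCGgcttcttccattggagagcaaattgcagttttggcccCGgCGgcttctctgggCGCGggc
Kcnj10: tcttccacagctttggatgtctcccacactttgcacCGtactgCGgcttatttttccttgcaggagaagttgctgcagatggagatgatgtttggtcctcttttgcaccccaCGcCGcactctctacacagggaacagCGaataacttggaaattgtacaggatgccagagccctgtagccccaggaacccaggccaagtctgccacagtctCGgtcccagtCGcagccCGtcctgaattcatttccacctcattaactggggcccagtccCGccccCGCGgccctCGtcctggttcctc

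Kcnh5 and Kcnmb4 each held a stretch of 350 bp that was covered in both R100 and R500 and lay outside the parental peaks, and sequence from these is printed in the same way for comparison. Each stretch directly adjoined a parental peak. The Kcnmb4 stretch, 1584 to 1933 bp downstream of the TSS, was also covered whole in R1000 and over 100 bp in R4000, whereas neither line covered any of the Kcnh5 stretch. The Kcnmb4 sequence, chr10:115909026-115909325 on the minus strand, is intronic and holds 5 CpGs (42.0% GC). At Kcnh5, chr12:76278320-76278350 on the minus strand, only the 31 bases before the TSS lie outside the untranslated region. Of the 4 sequences of 300 bases printed, that of Kcnmb4 held the fewest CpGs and that of Kcnk13 the most.
Kcnmb4: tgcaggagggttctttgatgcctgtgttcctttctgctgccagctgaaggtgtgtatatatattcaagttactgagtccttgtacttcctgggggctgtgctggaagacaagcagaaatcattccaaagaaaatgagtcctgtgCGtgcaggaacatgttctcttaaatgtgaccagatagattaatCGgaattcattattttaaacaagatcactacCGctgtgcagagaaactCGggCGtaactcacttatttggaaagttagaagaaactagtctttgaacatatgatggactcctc
Kcnh5: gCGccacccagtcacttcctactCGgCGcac

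A further 16 promoters passed the minimum in R100 or R500 but fell short of it in the parental line (16.7%, 10.5 to 25.4%), which is near the background of 14.3% of all protein-coding genes. Of these, 12 were covered in neither R1000 nor R4000 (12.5%, 7.30 to 20.6%, against 11.0%). The other 4 were Kcna2, Kcnk3, Kcnn3 and Kcns1. Kcnk3, the acid-sensitive K2P channel TASK, starts at position 30890543 of chromosome 5 and had 0, 950, 900, 250 and 200 bp. It was the only 1 of the 16 that was covered in R4000. Kcna2, a Kv1 channel of axons, had 100, 500, 700, 250 and 0 bp, and Kcns1, a silent Kv subunit, had 50, 500, 700, 500 and 0 bp.

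Among the genes at 0 bp in the parental line, Kcng1 followed Kcnk3. This silent Kv subunit had 800, 650, 0 and 50 bp from R100 to R4000. Kcnj4, an inward rectifier, had 550, 650, 100 and 0 bp in the same lines. Kcnj2, the inward rectifier known from heart and skeletal muscle, had 200, 250, 100 and 0 bp. Kcnq5 had 300, 100, 0 and 0 bp. Kcnd3, a Kv4 channel of transient outward current, had peaks within 2 kb of the TSS in R100 alone (350 bp), as did the K2P channel Kcnk5 (250 bp). Values in R1000 and R4000 at these genes were thus 100 bp or less, which is under the minimum of 150 bp. Kcnk10, a mechanosensitive K2P channel, was the reverse case with 0, 50, 0, 100 and 100 bp, also under the minimum.

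Of the 15 promoters covered in the parental line, Kcnc1 and Kcnh2 were covered in neither R1000 nor R4000. Kcnc1, a Kv3 channel of fast-firing neurons, had 300, 1300, 1500, 0 and 100 bp. Kcnh2, which encodes the cardiac channel hERG, had 150, 850, 550, 0 and 50 bp. Both were therefore above the parental line at the lower doses and below it at the higher ones. Kcnc4 (50, 300, 250, 100 and 0 bp) and Kcng2 (50, 550, 400, 100 and 0 bp) had a parental value under the minimum. The parental calls themselves were often marginal, since 4 of the 15 covered between 150 and 200 bp.

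Kcnh4, Kcnh5 and Kcne3 were also covered in the parental line and not in all lines. Kcnh5, an EAG-related channel with the 31 bases before its TSS printed above, had 150, 900, 682, 150 and 0 bp. Kcnh4, of the same family, had 150, 500, 600, 300 and 100 bp, with the TSS of Hcrt 2989 bp away. The auxiliary subunit Kcne3 had 200, 500, 600, 100 and 200 bp, and was the only gene covered in R4000 but not in R1000. In each of the 3 genes R100 and R500 were again above the other lines.

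Among the remaining genes not covered in the parental line, the small-conductance calcium-activated channel Kcnn3 had 50, 400, 400, 150 and 0 bp. The inward rectifier Kcnj5 (200 bp), the K2P gene Kcnk15 (150 bp) and the sodium-activated channel Kcnt1 (150 bp) had peaks within 2 kb of the TSS in R100 alone, at or just above the minimum.

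By role, the Kv7 and EAG-related genes had the largest share of covered promoters in R100 (42.9%) and the auxiliary subunits the smallest (18.8%), the latter near the 17.4% of all protein-coding genes. Against the parental background of 5.25%, the share of the inward rectifiers (6.67%) was near it too, while that of the auxiliary subunits in the parental line and R4000 was again 18.8%, against 5.25% and 5.50%. Of 14 Kv7 and EAG-related genes, 4 were covered in the parental line and 6, 5, 3 and 1 in R100, R500, R1000 and R4000. Within them, the 9 EAG-related genes had 4 in each of the parental, R100 and R500 lines and 1 in R4000. Of 18 genes of the Kv1 to Kv4 families, 4 were covered in the parental line and 7, 6, 4 and 2 in the resistant lines. Of 10 silent Kv subunits, 1 was covered in the parental line and 4, 4, 2 and 1 in the resistant lines. Over all protein-coding genes the shares were 5.25, 17.4, 13.3, 6.92 and 5.50% from the parental line to R4000. Higher counts of a group in R100 and R500 are therefore not by themselves a trait of that group, here or below. Summed coverage of the silent subunits was 400, 3000, 3100, 900 and 350 bp.

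Among 15 inward rectifiers, 1 was covered in the parental line (Kcnj10) and 4, 3, 1 and 1 in R100, R500, R1000 and R4000. Of 14 K2P genes, 2 were covered in the parental line and 5, 3, 3 and 3 in the resistant lines. The shares were 14.3, 35.7, 21.4, 21.4 and 21.4%. The K2P share was thus higher in R4000 than in the parental line, by 3 genes against 2. Over all protein-coding genes it was slightly higher in R4000 too (5.50% against 5.25%). Summed coverage of the K2P genes was 2159 bp (parental), 5155, 4459, 2159 and 2400 bp. The 8 calcium- or sodium-activated channels had none covered in the parental line, 2 in R100 (Kcnn3 and Kcnt1), 1 in R500, 1 in R1000 and none in R4000. Of 16 auxiliary subunits, the same 3 (Kcnmb4, Kcnab3 and Kcne3) were covered in the parental line, R100, R500 and R4000. No auxiliary promoter was added in any resistant line when counted at the 5′ end of the gene. Among other annotated transcript starts, 1 of the 3 starts of Kcnip3 was covered in a line. The 4 genes for Kv channel-interacting proteins (Kcnip1 to Kcnip4) had 0 bp within 2 kb of the TSS in all 5 lists. Groups of this size carry wide counting error, and differences between them were not tested.

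**Figure D4:**
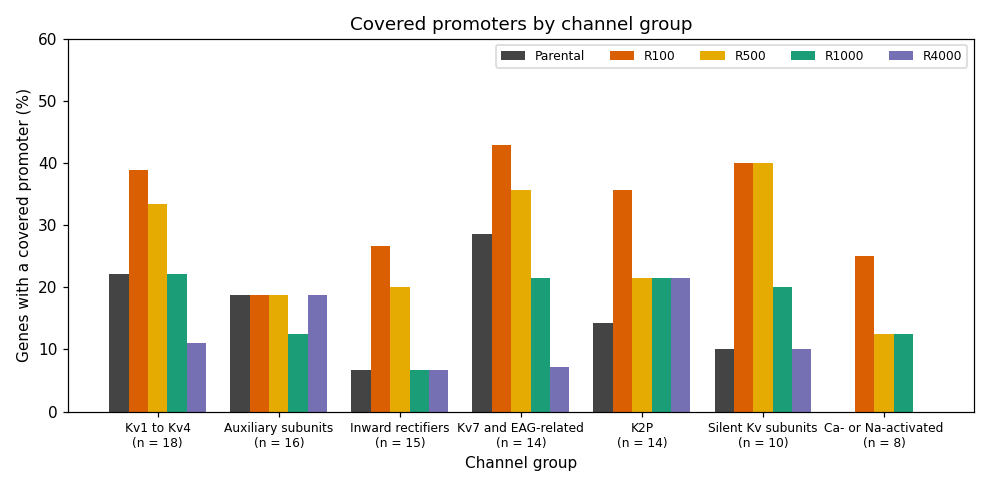
Percentage of genes with a promoter covered over at least 150 bp (y axis) in 7 groups of potassium channel genes (x axis, with their numbers) and 5 cell lines (bars, 1 list each and no error). The auxiliary subunits have the same 3 of 16 genes in 4 of the lines, and the calcium- or sodium-activated channels have no bar in the parental line and R4000.

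A total of 58 potassium channel genes had no covered base within 2 kb of the TSS in any line (60.4%, against 65.1% of all protein-coding genes), and another 7 had some but under 150 bp in every line. Both channels best known from lymphocytes were among the 58. Kcna3, the voltage-gated channel of T and B cells, starts at position 106839080 of chromosome 3, and Kcnn4, the calcium-activated channel of lymphocytes and red cells, at position 25155282 of chromosome 7. Each had 0 bp in all 5 lists, in the promoter and within the gene. Kcnq1, a cardiac Kv7 channel in an imprinted domain, had 0 bp at its TSS at position 150293159 of chromosome 7. Within the gene it had 150, 250, 50, 50 and 100 bp in the parental, R100, R500, R1000 and R4000 lines. A list without a peak does not show that the mark was absent, since the depth is unknown.

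The covered bases lay mostly downstream of the TSS, as they did in other genes. Of the bases covered within 2 kb, 66.9, 68.0, 61.9, 63.8 and 61.0% were downstream. Over all protein-coding genes these shares were 60.9, 66.3, 64.4, 64.1 and 65.6%. The largest share of potassium channel genes covered at any 100-bp step was 16.7% in R100, at both 300 and 700 bp downstream, against 7.83% and 5.71% at the same places over all protein-coding genes. In the parental line it was 7.29%, at 700 bp downstream, against 1.51%. These places were picked as the highest of the potassium channel genes, and the gap varied between steps. In R100 the shares were 11.5% against 7.49% at 400 bp downstream and 14.6% against 4.92% at 800 bp.

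**Figure D5:**
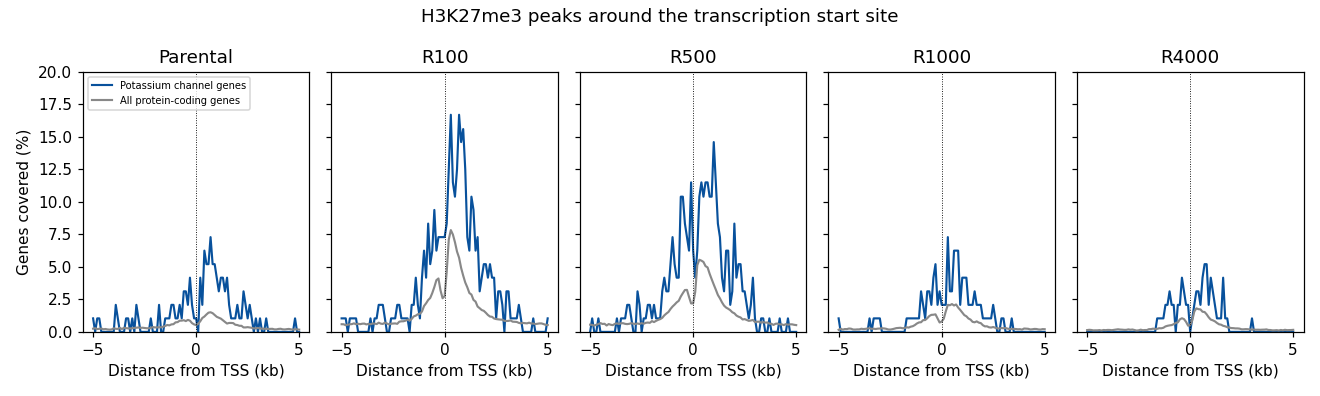
Percentage of genes covered by a peak (y axis) at 100-bp steps within 5 kb of the TSS (x axis, in kb) in each cell line (panels), for the 96 potassium channel genes (blue) and all protein-coding genes (grey). Blue reaches 16.7% in R100 and 7.29% in the parental line, both downstream of the TSS.

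Bases of the parental list were found again more often than in all promoters. Of the 9451 bp covered in the parental line at potassium channel promoters, R100 also covered 82.0%, R500 81.5%, R1000 51.4%, and R4000 43.4%. Over all protein-coding promoters, with overlapping windows joined, these shares were 72.9, 74.8, 48.2 and 34.5%. As shares of the promoter bases covered in each resistant line, the same bases made up 28.1, 30.0, 48.5 and 53.2% from R100 to R4000, against 19.0, 22.7 and 37.3% for R100, R500 and R4000 over all protein-coding promoters, with R1000 between the last pair. The difference between potassium channel genes and all genes was not tested.

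The symbol rule did not use sequence, so base composition could be compared. Potassium channel promoters had a median GC content of 55.1% within 1 kb of the TSS and a median ratio of observed to expected CpG of 0.48, against 51.1% and 0.47 over all protein-coding genes. CpG-rich promoters, with at least 50% GC and a ratio of at least 0.6, made up 26 of the 96 (27.1%), against 29.7%. The 31 promoters covered in a line had a median ratio of 0.60, the 9 covered in all 5 lines 0.65 and the 65 covered in none 0.35. Of the 26 CpG-rich genes, 8 were covered in the parental line (30.8%, all CpG-rich genes: 10.7%) and 15 in R100 (57.7%, all CpG-rich genes: 33.6%). Of the 70 others, 7 were covered in the parental line (4.93 to 19.2%, all such genes: 2.97%) and 16 in R100 (22.9%, 14.6 to 34.0%, all such genes: 10.6%). The potassium channel genes were thus above the background in both classes.

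The study also considered E2a, a factor of B-cell development that binds E boxes, and the promoter sequences were searched for such letters. The motif CAGGTG, read on both strands as CAGGTG or CACCTG, was present from 250 bp before to 50 bp after the TSS in 27 potassium channel genes (28.1%) and in 19.9% of all protein-coding genes. CAGCTG, which reads the same on both strands and shares no match with the first motif, was present in 23 (24.0%) and in 15.2%. The first motif was found at 9 of the 31 covered promoters (29.0%) and at 18 of the 65 covered in no line (27.7%), and the other at 6 (19.4%) and 17 (26.2%).

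Within the whole gene, from its first to its last base, at least 150 bp were covered in 13 potassium channel genes in the parental line (13.5%, against 5.67% of all protein-coding genes). R100 had 32 (33.3%, against 17.7%), R500 24 (25.0%, against 13.7%), R1000 15 (15.6%, against 6.68%) and R4000 9 (9.38%, against 5.18%). Potassium channel genes were longer, with a median of 27.5 kb against 15.4 kb. Per kb of gene they had 0.936, 3.01, 2.45, 0.877 and 0.557 covered bp, against 0.850, 3.12, 2.68, 0.957 and 0.662 over all genes. The excess over the background was therefore not seen per kb of gene in the resistant lines. Kcnk13 had the most covered bases within the gene, with 2750, 2600, 2850, 2400 and 1300 bp.

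Other cation channel genes were counted in the same way, as 15 sodium channel (Scn), 26 calcium channel (Cacn), 4 Hcn and 23 Trp genes. Of these 68, promoters of 6 were covered in the parental line (8.82%, 4.11 to 17.9%). The numbers for R100 and R500 were 15 (22.1%, 13.8 to 33.3%) and 12 (17.6%, 10.4 to 28.4%), and those for R1000 and R4000 were 7 (10.3%, 5.08 to 19.8%) and 5 (7.35%, 3.18 to 16.1%). Each share of the 68 was below that of the potassium channel genes, with intervals that overlap. Each was above that of all protein-coding genes, but in every line the interval of the 68 includes the all-gene share. Single families went either way. The calcium channel genes had 4, 8, 6, 4 and 4 of 26 covered, which in R4000 was a higher share than that of the potassium channel genes (15.4% against 11.5%), and 3 of the 26 were covered in all 5 lines. The Hcn genes had 0, 2, 2, 1 and 0 of 4, again higher shares in R100, R500 and R1000. The sodium channel genes had 1, 1, 2, 1 and 0 of 15 and the Trp genes 1, 4, 2, 1 and 1 of 23.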

How the data were processed

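H3K27me3 ChIP-seq of 5 lines was used, and the 5 RRBS (DNA methylation) samples were not analysed here. To call peaks, the authors compared immunoprecipitated with input libraries in tiled windows by a Poisson test. The submitters' processing notes name Bowtie and mm9. The authors deposited 1 list per line giving where each peak starts and ends, so the deposited values are positions in bp, with no count or score. For promoters the study required enrichment in several 50-bp bins, but whether its threshold also made these lists, and whether each list pools the replicates (n = 2 for the ChIP-seq), is not given in the sources used here.

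Distinct peaks were used, since every peak occurs 2 times in the lists of R100 and R500. Peak ends fell within the chromosome lengths of NCBIM37 (mm9) on 20 of 20 chromosomes checked. Covered bases were counted by a Python 3.11.15 script (numpy 2.4.6) and equalled those of bedtools 2.31.1 in 480 of 480 windows. The step was tested on simulated data, where 0 of 1000 intervals differed. The TSS was the 5′ end of the gene (GENCODE M1). Sequence was read with pysam 0.24.0, Wilson intervals came from scipy 1.17.1 and figures from matplotlib 3.10.9.

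The genes and lists were chosen with earlier results of these data known. Named genes were those with the 10 highest mean covered bases, the 8 highest in R100 and R500 and the 5 highest in R1000 and R4000 among genes at 0 bp in the parental line, up to 5 with the highest parental value among those under 150 bp in R1000 and R4000, the 5 highest within the gene, and Kcna3, Kcnn4 and Kcnq1. Other genes named were chosen after their values were seen. Some genes that the rule names are not reported here, though all counts and sums include them. The alternatives were other minimums, windows, starts and peak sets, and the depth of the libraries is unknown.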

Additional observations from a re-analysis of the deposited data

Results flagged for a closer look

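The resistant lines lay on different sides of the parental line in the bases covered at potassium channel promoters. The sum was 2.92 times the parental one in R100, 2.72 times in R500 and 1.06 times in R1000, but 0.815 times in R4000. The difference was not tested, since each line has 1 list. Over all protein-coding promoters the ratios were 3.86, 3.31, 1.31 and 0.940, and the lists of R1000 and R4000 hold fewer peaks than the parental list. Among peaks at least 500 bp wide R1000 was below the parental line too, with 2559 against 3759 bp.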

How the results depend on the processing

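The depth of the libraries limits all counts, and no list can show how they vary between cultures. No paired analysis was possible because each line has 1 list. Of 73 counts and sums recomputed under alternatives, 55 stayed within 1.5 times the reported value and 18 moved further. With a minimum of 50 bp, R4000 had 17 covered promoters. With a minimum of 500 bp, the parental line had 6 and R1000 had 9. In the 5 kb upstream of the TSS, the parental line had 9, R1000 had 8 and R4000 had 5, and 5 promoters were covered in all 5 lines. With peaks at least 500 bp wide, the parental, R100, R500, R1000 and R4000 lines had 3, 13, 14, 3 and 5 covered promoters and 3759, 15760, 15210, 2559 and 3650 covered bases, and 2 promoters were covered in all 5 lines. By construction, a higher minimum or the use of wide peaks alone can only lower a count, and a lower minimum can only raise it. The cause of the shifts was not tested. The share of potassium channel genes exceeded that of all protein-coding genes in every line under all 8 settings computed for both, and R100 had the highest count in 7 of the 8, the exception being wide peaks. Lists of equal number, joined peaks, any annotated transcript start, and the omission of 5 genes with another TSS within 4 kb (added after the data were seen) left all counts within 1.5 times.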

Other observations

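Beyond 2 kb from the TSS, 30 potassium channel genes had covered bases within the gene in at least 1 line. No matching count over all protein-coding genes was made. Potassium channel genes are longer (median 27.5 against 15.4 kb), so the number cannot be read as a trait of these genes. In the order parental, R100, R500, R1000, R4000, Kcnk13 had 1241, 891, 991, 1091 and 0 bp there. Kcnj10 had 50, 1850, 1200, 0 and 100 bp, and Kcnk3 had 200, 1050, 1000, 100 and 250 bp, so that Kcnk3, at 0 bp near its TSS in the parental line, did hold parental peaks further inside the gene.

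At 4 genes the promoter was under 150 bp in every line and at least 150 bp were covered further inside in some line. Kcnip3, whose product binds Kv4 channels, had 0, 500, 300, 0 and 0 bp. Of its 3 annotated transcript starts, 1 was covered in a line, so the gene was not free of peaks at every start. Kcnh6, a channel of the same family as Kcnh2, had 50, 350, 0, 0 and 0 bp. Kcnn1 had 150 bp in R500 alone, and the fourth was Kcnq1. The share of covered gene bases that lay within 2 kb of the TSS was 68.9, 63.7, 66.3, 74.5 and 86.2%. Neither the 4 genes nor these shares were compared with all protein-coding genes.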
